A study of Mus musculus with 12 samples.

Results

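Mammary glands of mice lacking cyclin D1 were compared with wildtype glands in the absence of given hormone. The comparison uses the 3 arrays whose titles give Ccnd1-/- with Vehicle and the 3 that give Ccnd1+/+ with Vehicle, which are 6 of the 12 arrays of the series. All mice were virgin C57BL/6 females whose ovaries had been removed. After recovery, whose length the labels give without a unit, these 6 mice received the placebo control for 7 days. The other 6 arrays, 3 of each genotype, come from mice given pellets releasing estradiol (0.72 mg, 60-day release) for the same time, and serve here to see whether a placebo difference recurred in other mice. They also share in the estimate of spread behind every SE and p below. Per the series description each array is a separate mouse. The knockout is labelled as Ccnd1-/- with no word on the allele, a tissue-specific deletion or the gland taken, and the control is the wildtype genotype.

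Cyclin D1 binds the kinases Cdk4 and Cdk6, which phosphorylate the retinoblastoma protein and release E2F factors, so that a cell can enter S phase. It is also known to bind the estrogen receptor. In the mammary gland estradiol and progesterone raise cyclin D1 in luminal epithelial cells, and mice without it form a ductal tree but few of the milk-producing alveoli of pregnancy. Removal of the ovaries takes away most circulating estradiol, and the resting gland is then mainly fat with a sparse epithelial tree.

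Intensities were deposited on a log2 scale, so that a difference of 1 is a doubling. Where several probe sets stood for 1 gene, the one brightest on average was used, which gave 18193 genes. Correlations between arrays ran from 0.937 to 0.993, and no array was a copy of another. Fat cell genes were among the brightest in all 6 placebo arrays, with the hormone Adipoq at 13.49 to 13.81, and the epithelial keratin Krt8 ranged from 5.32 to 9.21. Other tissues differed between the arrays within each genotype. The B cell gene Ms4a1 read 11.77, 11.43 and 5.12 in the wildtype and 11.63, 4.88 and 11.36 in the knockout arrays, so that wildtype array 3 and knockout array 2 were poor in lymphocyte RNA. The skeletal muscle actin Acta1 read 13.16, 14.01 and 10.20 in wildtype and 7.39, 12.81 and 5.82 in knockout arrays, which puts knockout arrays 1 and 3 lowest. The values of gene lists below that move with single arrays are given with those arrays left out.

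No gene passed the test for a genotype difference on placebo. Of 18193 genes, 0 had an adjusted p under 0.05 by limma with Benjamini-Hochberg adjustment (0%), and the lowest adjusted p was 0.9999. At an unadjusted p under 0.05 there were 370 genes (2.03%), of which 268 were higher in the knockout (1.47%) and 102 lower (0.561%). These counts moved with the arrays and genes used. They were 149 higher and 74 lower from the 6 placebo arrays alone, 150 and 153 without wildtype array 2, 559 and 323 without wildtype array 3, and 44 and 53 without the dimmest 40% of genes. The excess of higher over lower genes was not seen without the dim genes or wildtype array 2. Those higher had a median level of 4.84 and a median difference of 0.32, and those lower had a median level of 6.78 and a median difference of -0.48. The 3 arrays of each genotype did not overlap in 1220 genes (6.71%), with the knockout higher in 891 (4.9%) and lower in 329 (1.81%).

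The precision of 3 mice against 3 bounds most genes. The 95% interval of the placebo difference reached a median of 0.393 to either side, and in 15464 genes (85.0%) it lay within -1 and 1. For those genes a change of more than 2-fold in intensity is outside the interval. The median SE was 0.177 over all genes and 0.217 without the dimmest 40%. For genes near background the array signal limits the difference that can be seen. Differences over 1 in size were seen in 169 genes (0.929%), of which 146 were lower in the knockout and 23 higher. Of the 146, 16 belong to the list of 20 skeletal muscle genes, 9 to the list of 20 luminal epithelial genes and 5 each to the milk protein and brown fat lists. Groups did not overlap in 22 of the 146, which were chosen by the size of the difference. Of all genes, 1.81% had lower knockout groups without overlap. Knockout array 1 was below every wildtype array in 124 of the 146, array 3 in 92 and array 2 in 56.

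Ccnd1 itself was lower on placebo in each knockout array. Its intensity was 9.17, 8.50 and 8.75 in wildtype and 7.68, 7.52 and 7.48 in knockout arrays. The groups did not overlap, and the difference was -1.25 ± 0.31 (SE, unadjusted p = 0.00245), with a 95% interval of -1.95 to -0.55. It did not pass the test over all genes on placebo. On estradiol the wildtype arrays read 9.90, 10.82 and 9.35 and the knockout arrays 7.55, 7.44 and 7.24, a difference of -2.62 ± 0.31 that passed (adjusted p = 0.0094). The knockout level was thus near 7.5 under either treatment. The sources used here do not place this probe set inside or outside the deletion, so the signal left in the knockout cannot be read as transcript. The other Ccnd1 probe sets differed by -0.74 and -0.33 on placebo.

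The partners of cyclin D1 and the other D-type cyclins showed small differences. Ccnd2, a close relative that can bind the same kinases, read 11.65, 11.34 and 11.91 in wildtype and 11.92, 12.15 and 11.41 in knockout arrays, with overlapping groups and a difference of 0.19 ± 0.27. Its 95% interval, -0.42 to 0.80, leaves room for less than a doubling, and its other probe sets ran from -0.25 to 0.42. Ccnd3 differed by 0.07 ± 0.14 and Cdk4 by 0.06 ± 0.18, and both turned below 0 under some settings. Cdk6 differed by 0.25 ± 0.20, with its 3 knockout arrays at 9.0, 8.77 and 9.13 against 8.81, 8.63 and 8.72 in wildtype. Of the 12 genes listed as D-type cyclins, their kinases and inhibitors, 1 was lower at an unadjusted p under 0.05, which was Ccnd1, and none was higher.

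Genes downstream of the kinases were mostly a little higher in the knockout. Cyclin E, which drives S phase entry through Cdk2, is encoded in part by Ccne1, which read 7.55, 7.25 and 7.69 in wildtype and 7.80, 7.97 and 7.81 in knockout arrays. All knockout arrays were above all wildtype arrays, with a difference of 0.36 ± 0.14 (unadjusted p = 0.0271). In the list of RB family, E2F factors and cyclin E, 12 of 16 genes lay above 0 with a median of 0.09, where 54.3% of all genes lay above 0 with a median of 0.02. With single arrays left out that list median ran from 0.05 (without wildtype array 3) to 0.18 (without wildtype array 1). The repressor E2f7 had a wider spread, 6.19, 6.08 and 7.00 against 6.93, 7.66 and 6.48, and did not separate the genotypes (0.60 ± 0.32).

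Replication and mitosis genes had higher knockout means without a call. In the list of S phase and DNA replication genes, 21 of 22 lay above 0 with a median of 0.29, and 2 were higher at an unadjusted p under 0.05 (1.47% of all genes were). The median fell to 0.0034, with 11 of 22 above 0, without wildtype array 3, to 0.035 without knockout array 3 and to 0.037 with the skeletal muscle score as a covariate. Without knockout array 2 it was 0.76. Those 2 were subunits of the GINS complex, which opens DNA at the replication fork. Gins2 read 7.23, 6.97 and 7.55 in wildtype and 7.64, 7.65 and 7.86 in knockout arrays, a difference of 0.46 ± 0.16. Gins1 read 7.08, 6.94 and 6.90 against 7.22, 7.24 and 7.70, a difference of 0.41 ± 0.16. In neither did the groups overlap (4.9% of all genes were higher without overlap).

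All 23 measured G2 and M phase genes had higher means in the knockout, with a median of 0.59. Without wildtype array 3 the median was 0.10 and 15 of 23 lay above 0, and without knockout array 2 it was 1.19. Of the 23, 1 was higher at an unadjusted p under 0.05 (1.47% of all genes were), Anln, which encodes the cytokinesis scaffold anillin. It read 6.31, 6.24 and 6.41 in wildtype and 6.68, 6.61 and 7.03 in knockout arrays, with no overlap and a difference of 0.45 ± 0.16. Foxm1, a transcription factor of the mitotic program, differed by 0.26 ± 0.13 and did not overlap either. These were the 2 of 23 without overlap (4.9% of all genes were higher without overlap). The largest difference of the list was of another kind. Top2a, a topoisomerase of dividing cells, read 9.66, 9.27 and 6.49 in wildtype and 10.33, 7.53 and 10.45 in knockout arrays, and its difference of 0.97 ± 0.97 came with overlapping groups, since knockout array 2 was below 2 wildtype arrays. Its other probe sets differed by -0.09 and 0.36. The proliferation marker Mki67 read 9.97, 9.51 and 6.24 against 10.07, 7.56 and 10.58.

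The low arrays for these cycle genes were the lymphocyte-poor arrays. The G2 and M phase score, the mean of the members after each was centred over the 12 arrays, was 0.44, 0.15 and -1.25 in wildtype and 0.86, -0.82 and 1.10 in knockout arrays. The lymphocyte score, taken over the 15 T cell and 15 B cell genes, was 2.17, 1.64 and -1.88 in wildtype and 1.75, -1.83 and 1.81 in knockout arrays. Wildtype array 3 and knockout array 2 were lowest in both scores. The gap between the 3′ and 5′ control probe sets of Gapdh grows as RNA breaks down. It was 3.04, 3.26 and 2.10 in wildtype and 3.26, 3.20 and 3.31 in knockout arrays, so wildtype array 3 stood apart there as well. The same gap for Actb was 2.91, 2.41 and 2.77 in wildtype and 2.99, 2.57 and 3.02 in knockout arrays. By Actb wildtype array 3 did not stand apart. Within the 4 lymphocyte-rich arrays, both knockout arrays lay above both wildtype arrays in the G2 and M phase score.

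Without those 2 arrays the median of the G2 and M phase genes was 0.71, with 6 members higher at an unadjusted p under 0.05 (1.44% of all genes) and 0 called. With the lymphocyte score as a covariate the median was 0.61 and 15 of 23 were higher at an unadjusted p under 0.05 (3.25% of all genes), again with 0 called. Other settings gave less. The median was 0.25 with the muscle score as a covariate and 0.24 without knockout array 3, beside the 0.10 without wildtype array 3. With the Gapdh gap as a covariate it was 0.15, with 14 of 23 above 0. Mki67 and Top2a turned below 0 without wildtype array 3, at -0.34 and -0.02. The part of lymphocyte and muscle content and of RNA quality in the cell cycle values was not tested beyond these fits.

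**Figure D1:**
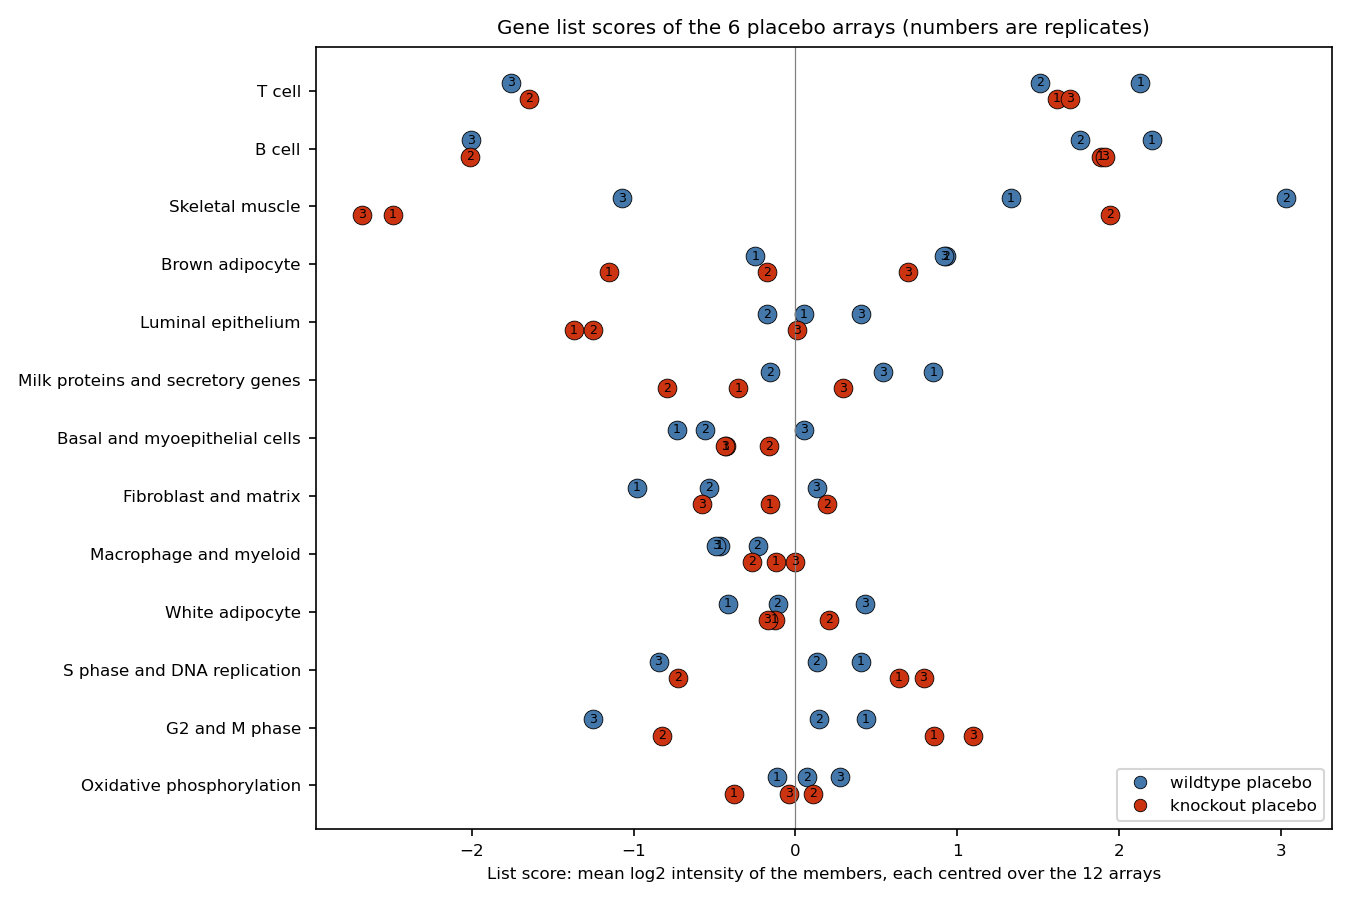
Scores of 13 gene lists in the 6 placebo arrays, as the mean log2 intensity of the members after each gene was centred over the 12 arrays; each numbered point is 1 array, blue for wildtype and red for knockout. Wildtype array 3 and knockout array 2 lie lowest for the T cell, B cell, S phase and G2 and M phase lists, and knockout arrays 1 and 2 lie lowest for luminal epithelium.

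The estrogen receptor gene Esr1 was not separated by genotype on placebo. It read 10.36, 10.56 and 11.47 in wildtype and 10.53, 11.70 and 10.53 in knockout arrays, and its difference was 0.12 ± 0.39. The highest array of each group was the lymphocyte-poor one. Esr2, the second estrogen receptor gene, lay between 4.48 and 5.05 in all 6 arrays, below the lower quartile of the array in 5 of them. The orphan receptor Esrrg read 5.44, 6.64 and 5.10 against 4.11, 4.34 and 5.43, a difference of -1.10 ± 0.54, with its other probe sets at -0.65 and 0.06.

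The progesterone receptor gene Pgr, a classical estrogen target, had a lower mean in the knockout already on placebo. It read 5.64, 5.18 and 5.04 in wildtype and 3.64, 4.03 and 5.15 in knockout arrays. Knockout arrays 1 and 2 were below the wildtype range and below the lower quartile of their arrays, while array 3 was inside the range. The difference was -1.01 ± 0.34 (unadjusted p = 0.0136) and did not pass, and the other Pgr probe sets ran from -0.11 to -0.01. On estradiol the difference of -2.47 ± 0.34 passed (adjusted p = 0.0151). The test of whether the difference itself changed with treatment did not pass (-1.45 ± 0.48, adjusted p = 0.58).

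Other estrogen targets did not share one direction. Of 19 measured, 8 lay above 0 and 11 below, with a median of -0.13, which was -0.25 without knockout array 3. Greb1, known to be induced by estrogen, was below the lower quartile in all 6 placebo arrays, at 3.40, 3.82 and 3.98 in wildtype and 4.14, 4.64 and 3.82 in knockout. Wnt4, a secreted signal that acts downstream of progesterone in the gland, read 5.99, 6.97 and 5.99 in wildtype and 5.37, 5.48 and 5.68 in knockout arrays. The groups did not overlap, with a difference of -0.81 ± 0.33. Lactoferrin, Ltf, an iron-binding protein of milk, had the lowest difference of the list, -2.03 ± 0.93, with knockout array 2 at 4.96 and the other knockout arrays at 7.39 and 7.95 against 8.85, 7.75 and 9.80 in wildtype.

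Mmd2, a membrane protein gene whose estradiol arrays stood far above its placebo arrays in both genotypes, lay the other way. It read 5.96, 6.00 and 6.04 in wildtype and 6.88, 6.47 and 6.73 in knockout placebo arrays. Every knockout array was above every wildtype array, by a mean of 0.69 ± 0.14 (unadjusted p = 6.80e-04). Its other probe sets differed by 0.06 to 0.32 on placebo, and the difference on estradiol was 0.40 ± 0.14. All arrays on estradiol stood between 12.15 and 12.89, so the placebo difference is small beside the response to the hormone. The test of a change between treatments did not pass (-0.29 ± 0.20).

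**Figure D2:**
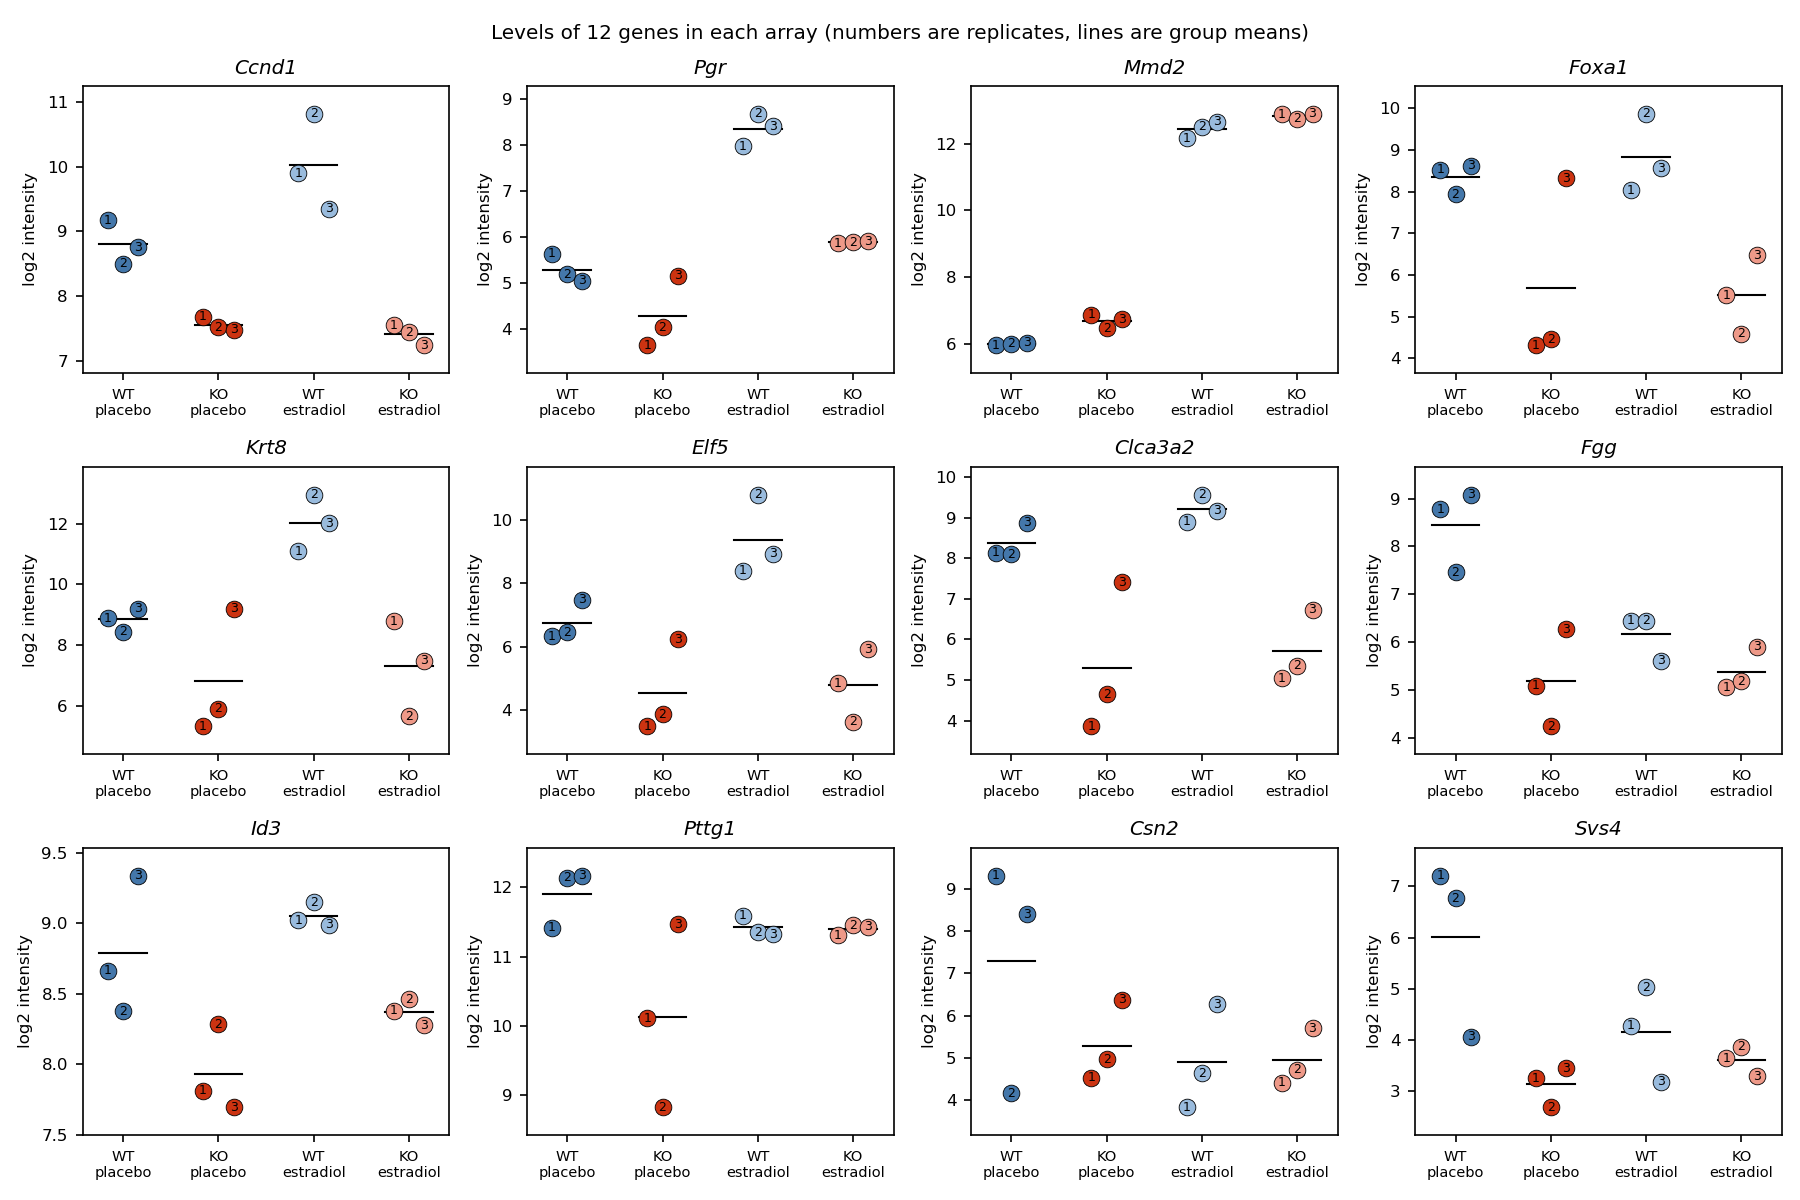
Log2 intensity of 12 genes in each of the 12 arrays; numbers are replicates within a group and lines are group means. Ccnd1 and Mmd2 separate the placebo genotypes in all 6 arrays, while Foxa1 and Krt8 are low in knockout placebo arrays 1 and 2 and near the wildtype level in array 3.

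Luminal epithelial genes had lower means in the knockout on placebo. Of 20 measured genes, 18 lay below 0 (45.7% of all genes did), with a median of -0.71. Of these, 4 were lower at an unadjusted p under 0.05 (0.561% of all genes were) and 0 were called. The array values show that the difference rests on 2 of the 3 knockout mice. In bulk tissue, fewer luminal cells and less RNA per luminal cell cannot be told apart.

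Foxa1, a factor that opens chromatin for the estrogen receptor, read 8.53, 7.93 and 8.62 in wildtype and 4.31, 4.46 and 8.32 in knockout arrays. Its difference was -2.66 ± 0.97 (unadjusted p = 0.0201), and the groups overlapped through knockout array 3 alone. The simple epithelial keratins had the same order. Krt8 read 8.89, 8.44 and 9.21 against 5.32, 5.89 and 9.20, and Krt18 read 7.86, 7.36 and 8.42 against 4.61, 4.80 and 7.80. In both, knockout arrays 1 and 2 were more than 2 log2 units under every wildtype array.

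Elf5, a factor of the alveolar luminal lineage, was the one listed luminal gene whose groups did not overlap. It read 6.34, 6.46 and 7.48 in wildtype and 3.50, 3.88 and 6.24 in knockout arrays, a difference of -2.22 ± 0.85. Its other probe set differed by only -0.02. The junction gene Cdh1 (E-cadherin) read 6.23, 5.79 and 6.53 against 4.26, 4.02 and 6.18, and the keratin Krt19 read 7.50, 7.21 and 8.37 against 4.64, 5.70 and 7.73. Epcam, an epithelial adhesion gene, was level by its brightest probe set (0.08 ± 0.14), but its other probe set differed by -1.21 and the mean of both by -0.56.

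The same arrays were low for epithelial genes outside the list. These were picked after their values were seen. The desmosome gene Dsp read 6.14, 5.86 and 6.38 in wildtype and 3.50, 3.30 and 5.85 in knockout arrays, and the protease Tmprss2 read 8.23, 7.94 and 8.45 against 5.08, 5.13 and 8.21. The water channel Aqp5 read 7.32, 6.96 and 8.0 against 5.06, 4.95 and 7.64. In each, knockout array 3 was within 0.5 of the nearest wildtype array and arrays 1 and 2 were not. The other probe sets of Dsp and Tmprss2 were not of one sign, from -1.45 to 0.19 and from -1.63 to 0.19.

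The luminal score summarises this order, at 0.05, -0.17 and 0.40 in wildtype and -1.37, -1.25 and 0.01 in knockout arrays. Without knockout array 3 the median of the list was -1.06 with 8 of 20 lower at an unadjusted p under 0.05 (143 of all 18193 genes were). Without the 2 lymphocyte-poor arrays, which takes out one of the 2 low knockout arrays, it was -0.45 with 0 lower at that threshold. In the estradiol arrays, which are other mice, all 20 lay below 0 (44.8% of all genes did) with a median of -2.82. Of the 20, 8 were called lower (1.09% of all genes were). There too knockout arrays varied, with Krt8 at 8.79, 5.65 and 7.48 against 11.10, 12.96 and 12.02 in wildtype.

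Clca3a2, a regulator of chloride channels, was the mammary gene with the largest difference among those with the smallest p. It read 8.14, 8.10 and 8.88 in wildtype and 3.86, 4.65 and 7.41 in knockout arrays. The groups did not overlap, at -3.07 ± 0.78 (unadjusted p = 0.00272), and knockout array 3 was again highest. On estradiol the difference was -3.50 ± 0.78, just short of the threshold (adjusted p = 0.0659). Its second probe set differed by -1.37 on placebo.

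Basal and myoepithelial genes were not lowered with the luminal genes. Their median was 0.03, with 9 of 15 above 0, and ran from -0.06 to 0.15 with single arrays left out. The basal keratin Krt5 read 6.01, 5.95 and 6.52 in wildtype and 5.87, 6.01 and 6.20 in knockout arrays, and Krt14 read 6.04, 6.85 and 6.96 against 6.03, 6.21 and 6.49. Both groups overlapped throughout. The smooth muscle actin Actg2 lay the other way, at 5.62, 6.02 and 6.08 in wildtype and 6.52, 6.53 and 6.49 in knockout arrays, a difference of 0.61 ± 0.23 with no overlap. On estradiol Actg2 was lower in the knockout by -1.79 ± 0.23, which passed (adjusted p = 0.0122), while the test of a change between treatments missed the threshold (-2.40 ± 0.32, adjusted p = 0.0981). Acta2, another smooth muscle actin, differed by 0.34 ± 0.21 on placebo and -1.56 ± 0.21 on estradiol.

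Milk protein genes were highest in 2 of the 3 wildtype mice. Beta-casein, Csn2, read 9.30, 4.17 and 8.40 in wildtype and 4.53, 4.97 and 6.37 in knockout arrays. Another casein, Csn1s2a, read 7.50, 3.98 and 6.89 against 3.82, 4.25 and 4.44, and the whey protein Wap read 6.99, 5.07 and 8.16 against 5.28, 5.99 and 5.77. Wildtype arrays 1 and 3 were above all knockout arrays in these 3 genes, and wildtype array 2 was at or below the knockout level. Their differences were -2.0 ± 1.17, -1.96 ± 0.72 and -1.06 ± 0.59. The other probe sets were closer to 0, at -0.19 for Csn2 and from -0.39 to 0.12 for Csn1s2a. In the list of 13 milk genes 11 lay below 0, with a median of -0.16, which was -0.44 without knockout array 3.

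**Figure D3:**
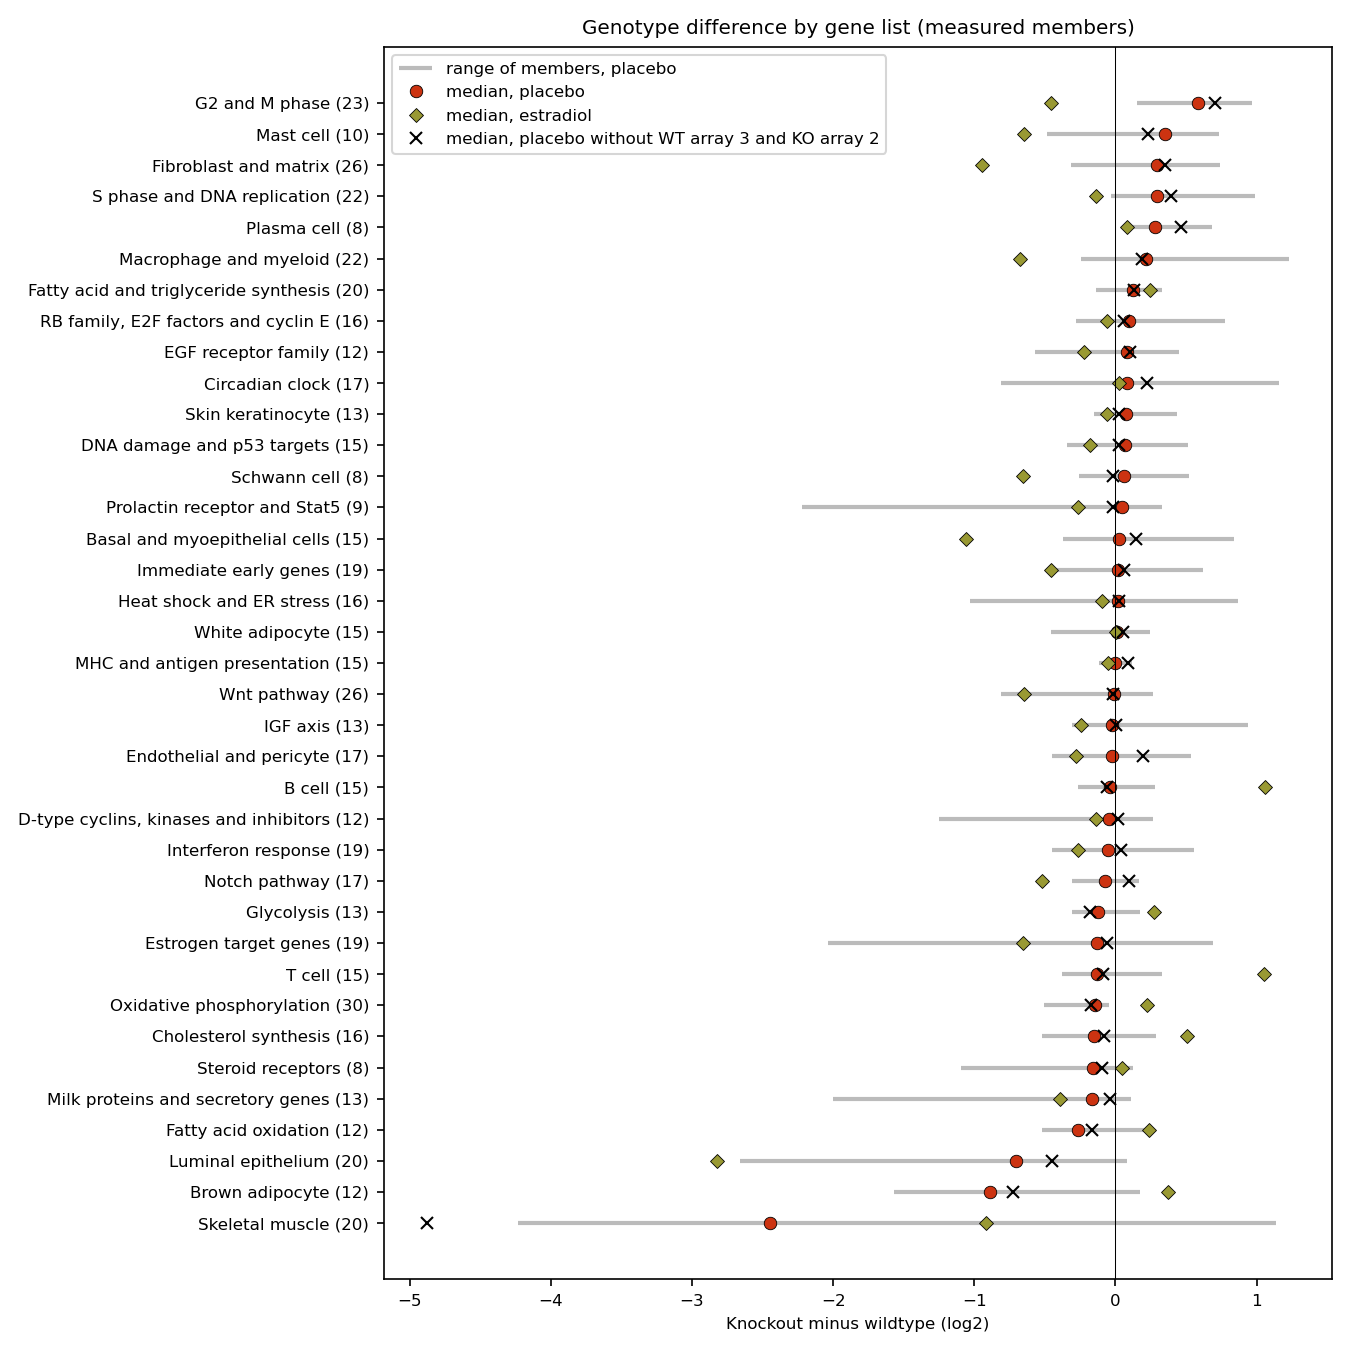
Genotype difference by gene list, with the number of measured genes in parentheses; bars run from the lowest to the highest member on placebo, red points are placebo medians, diamonds are medians on estradiol and crosses are placebo medians without wildtype array 3 and knockout array 2. Skeletal muscle (-2.45), brown adipocyte (-0.89) and luminal epithelium (-0.71) lie lowest and G2 and M phase (0.59) highest on placebo, while fibroblast, basal and luminal medians are below 0 on estradiol.

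Matrix genes of fibroblasts had slightly higher means in the knockout. Of 26 measured, 22 lay above 0 with a median of 0.30, none at an unadjusted p under 0.05. The median was 0.08, with 17 of 26 above 0, without wildtype array 1, 0.16 without knockout array 2 and 0.52 without wildtype array 3. The collagen Col1a1 read 10.21, 10.42 and 11.18 in wildtype and 11.48, 11.88 and 10.68 in knockout arrays (0.74 ± 0.36), and Col6a2 read 11.43, 11.76 and 12.38 against 12.81, 12.66 and 11.87 (0.59 ± 0.28). Knockout arrays 1 and 2, the arrays low in luminal genes, were the highest for both collagens. On estradiol all 26 lay below 0, with a median of -0.94 and 2 called lower (1.09% of all genes were).

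Cthrc1, a secreted protein of collagen-producing cells picked after its values were seen, showed the same turn. It read 4.21, 4.54 and 5.23 in wildtype and 5.37, 5.56 and 6.25 in knockout placebo arrays. The groups did not overlap, with a difference of 1.07 ± 0.31. On estradiol it was lower in the knockout by -2.04 ± 0.31, which passed (adjusted p = 0.0187). The test of the change between treatments did not pass (-3.11 ± 0.44, adjusted p = 0.113).

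The lymphocyte lists differed more between arrays of a genotype than between genotypes. T cell genes had a median of -0.13 and B cell genes of -0.04, and each genotype held 1 poor array. Without wildtype array 3 these medians were -1.36 and -1.42, and without knockout array 2 they were 1.01 and 1.24. Macrophage and myeloid genes lay above 0 in 19 of 22, with a median of 0.22, and 0.17 to 0.34 with single arrays left out. Their highest member was the neutrophil gene S100a8, at 6.23, 7.96 and 6.18 in wildtype and 8.60, 6.46 and 9.0 in knockout arrays, with overlapping groups. The mast cell list had a median of 0.35 over 10 genes, which was -0.02 without wildtype array 1, and in it the histamine enzyme gene Hdc read 5.48, 6.09 and 5.56 against 6.48, 6.66 and 6.20, with no overlap and a difference of 0.73 ± 0.26. White adipocyte genes had a median of 0.01, with members from -0.45 to 0.25, and a range of medians from -0.06 to 0.17 with single arrays left out.

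Skeletal muscle genes were lowest in knockout arrays 1 and 3 and high in array 2. The skeletal muscle list had a median of -2.45 with 18 of 20 below 0, and a score of 1.33, 3.03 and -1.07 in wildtype and -2.49, 1.94 and -2.68 in knockout arrays. The groups overlapped through knockout array 2, none of the 20 genes had an unadjusted p under 0.05, and without the 2 lymphocyte-poor arrays the median was -4.88. Single arrays left out gave -3.91 (without knockout array 2) to -1.54 (without wildtype array 2). All 30 oxidative phosphorylation genes lay below 0, but by a median of only -0.15, which was -0.02 with the muscle score as a covariate and -0.01 without knockout array 1. Brown adipocyte genes had a median of -0.89, which was -0.37 without knockout array 1 and -1.29 without knockout array 3, and the heat-producing uncoupling protein Ucp1 read 10.30, 12.72 and 12.03 against 9.06, 9.29 and 12.27.

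The gene with the smallest p on placebo was Fgg, the gamma chain of the clotting protein fibrinogen. It read 8.77, 7.46 and 9.08 in wildtype and 5.09, 4.25 and 6.27 in knockout arrays. The nearest arrays of the groups were more than 1 log2 unit apart, and the difference was -3.23 ± 0.54 (unadjusted p = 1.33e-04). On estradiol, where the wildtype arrays read 6.45, 6.45 and 5.62, it was -0.79 ± 0.54. Of the other chains, Fga was below the lower quartile in all 6 placebo arrays, at 3.08 to 4.42. At that level a fall could not be judged. Fgb followed in part, at 5.82, 5.57 and 6.14 in wildtype and 4.75, 4.44 and 7.65 in knockout arrays. The knockout arrays at 4.75 and 4.44 were below every wildtype array, while that at 7.65 was above them all. The Fgb difference was -0.23 ± 0.67.

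Besides Ccnd1, Fgg, Clca3a2 and Svs4, the 12 lower genes with the smallest p held regulators of other kinds. Id3, which blocks the DNA binding of helix-loop-helix factors, read 8.66, 8.37 and 9.34 in wildtype and 7.81, 8.28 and 7.69 in knockout arrays. The groups did not overlap, at -0.86 ± 0.23, and the difference on estradiol was of like size (-0.68 ± 0.23, adjusted p = 0.224). Pttg1, whose product securin blocks early separation of sister chromatids, read 11.41, 12.14 and 12.17 against 10.11, 8.83 and 11.47 (-1.77 ± 0.51). The other Pttg1 probe sets were at -1.63 and -1.30. On estradiol Pttg1 was level (-0.02 ± 0.51). Its direction on placebo was opposite to that of the G2 and M phase list.

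Smaller differences with narrow spread made up most of the others. The MAP kinase phosphatase gene Dusp7 read 7.97, 8.05 and 7.70 in wildtype and 7.51, 7.16 and 7.54 in knockout arrays, and differed by -0.50 ± 0.15 on placebo and by -0.66 ± 0.15 on estradiol. Its other probe sets differed by -0.40 and 0.13 on placebo. Pfkfb4, an enzyme that tunes glycolysis, differed by -0.59 ± 0.15, the histone gene H2bc21 by -0.46 ± 0.15, the pseudouridine synthase gene Trub1 by -0.78 ± 0.24 and the mitochondrial factor Mterf2 by -0.55 ± 0.18. Except for Mterf2, the groups did not overlap in these genes. The other probe set of Trub1 differed by 0.11.

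In the list of heat shock and ER stress genes 8 of 16 lay on each side of 0, with a median of 0.02 and a highest member at 0.87. The members with the smallest p, Hspa1a and Hspa1b, lay below 0, as did Stip1 outside the list. Stip1, a co-chaperone that links Hsp70 and Hsp90, read 8.15, 7.79 and 8.16 in wildtype and 7.72, 7.46 and 7.62 in knockout arrays (-0.44 ± 0.13). The Hsp70 gene Hspa1a read 7.27, 6.97 and 6.55 against 5.53, 6.12 and 6.05 (-1.03 ± 0.39). Its near-identical copy Hspa1b, with which it may share probes, read 8.70, 8.21 and 7.49 against 7.12, 6.76 and 7.48 (-1.01 ± 0.38). The groups overlapped in none of the 3, with the smallest gap for Hspa1b.

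The circadian list had members on both sides. The clock output gene Dbp, chosen after its values were seen, read 9.74, 10.48 and 11.66 in wildtype and 11.49, 12.36 and 11.50 in knockout arrays (1.16 ± 0.63). Arntl, whose product is the Bmal1 activator of the clock and whose rhythm is opposite to that of Dbp, read 8.18, 8.01 and 6.67 against 7.42, 5.59 and 7.42 (-0.81 ± 0.66), with its other probe set at 0.15. In each genotype the array highest for Dbp was lowest for Arntl, and these were the 2 lymphocyte-poor arrays. The labels used here give no time of day for the collection.

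The 12 genes higher in the knockout with the smallest p were, apart from Mmd2 and a pair of Trim genes, dim with small differences. The receptor gene Prokr1 read 4.33, 4.38 and 4.34 in wildtype and 4.74, 4.85 and 4.78 in knockout arrays, a difference of 0.44 ± 0.08 at a level below the lower quartile of every placebo array. Rhd, a blood group protein gene of red cells, read 5.24, 5.47 and 5.37 against 5.78, 6.02 and 5.76 (0.49 ± 0.11). The synaptic gene Rims2 differed by 0.41 ± 0.11 on placebo and by 0.38 ± 0.11 on estradiol. Pcdh11x, Scgb3a2, Lce1f and Capn11 differed by 0.38 to 0.47, and 2 more had clone names only. Prokr1, Rims2, Pcdh11x, Scgb3a2 and Lce1f were below the lower quartile in all 6 placebo arrays.

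Neighbouring Trim genes on chromosome 7 were among the genes with the largest differences above 0, and the array values tie them to 2 wildtype mice. The TRIM family of ubiquitin ligases includes factors of innate antiviral defence. Trim34a read 4.78, 4.65 and 8.52 in wildtype and 9.34, 8.22 and 10.12 in knockout arrays. Its difference was 3.24 ± 0.89 (unadjusted p = 0.0043), and wildtype array 3 overlapped the knockout range. A second Trim34a probe set showed no such step, at -0.21. Trim12a read 4.12, 4.41 and 7.13 against 7.82, 7.19 and 8.68 (2.68 ± 0.71), with its second probe set at 0.48. Trim30d read 3.42, 3.64 and 6.95 against 6.80, 7.49 and 7.75 (2.68 ± 0.78), with its second probe set at 0.92.

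Wildtype placebo arrays 1 and 2 were the only ones of the 12 at the low level for Trim34a, Trim12a and Trim30d. On estradiol Trim34a read 8.73, 8.61 and 8.76 in wildtype and 8.87, 9.64 and 8.93 in knockout arrays, with a difference of 0.45 ± 0.89. Trim5, a neighbour, followed in part, at 4.84, 5.0 and 5.50 against 6.10, 5.66 and 7.85 (1.43 ± 0.51). Trim30a and Trim12c, relatives of the same family, differed by -0.10 and -0.23 by their brightest probe sets and by 1.24 and 0.01 by their second. Without wildtype array 3, Trim34a and Trim30d were called at differences of 4.51 and 3.82 (adjusted p = 0.0252 for each), and without both lymphocyte-poor arrays Trim34a was called at 5.01 (adjusted p = 0.00149). Ccnd1 is on chromosome 7 too, and the nearest of the 4 Trim genes is 462 gene places from it in the RefSeq order.

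The same 2 wildtype arrays were high for Svs4 and for further genes known from the male accessory glands, most of them chosen after their values were seen. Svs4, a seminal vesicle protein gene, read 7.21, 6.77 and 4.06 in wildtype and 3.26, 2.69 and 3.45 in knockout arrays (-2.88 ± 0.73, no overlap). Probasin, Pbsn, read 6.76, 5.12 and 3.43 against 3.36, 3.26 and 3.20, and the prostate transglutaminase Tgm4 read 8.57, 8.84 and 6.47 against 6.34, 6.35 and 6.05. Pate4, another such gene, was high in wildtype array 1 alone, at 6.19. Those chosen so were Pbsn, Tgm4 and Pate4. Xist, the RNA of the inactive X chromosome, lay between 10.78 and 11.80 in all 12 arrays. Of 9 measured Y chromosome genes, 2 had an unadjusted p under 0.05 on placebo (2.03% of all genes did). In size, 0 of the 9 differed by more than 1. The sex of the tissue was not tested beyond these values.

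Between wildtype arrays 1 and 2 and the other 10 arrays, 9 genes were separated by more than 1 log2 unit, 3 of them low and 6 high in the pair. The other pairs within a placebo group were set apart by 0 to 4 genes, and a pair of wildtype estradiol arrays, 2 and 3, by 20. A step of on and off levels was also seen for the neighbours Rpgrip1 and Ang on chromosome 14, chosen after their values were seen. Rpgrip1 read 7.24, 6.75 and 9.76 in wildtype and 10.47, 9.97 and 11.36 in knockout placebo arrays by its brightest probe set (the others differed by -0.03 to 0.36), and on estradiol 6.14, 10.07 and 6.15 against 5.79, 10.08 and 9.85. Low and high arrays thus occurred in both genotypes. What sets these arrays apart was not tested.

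**Figure D4:**
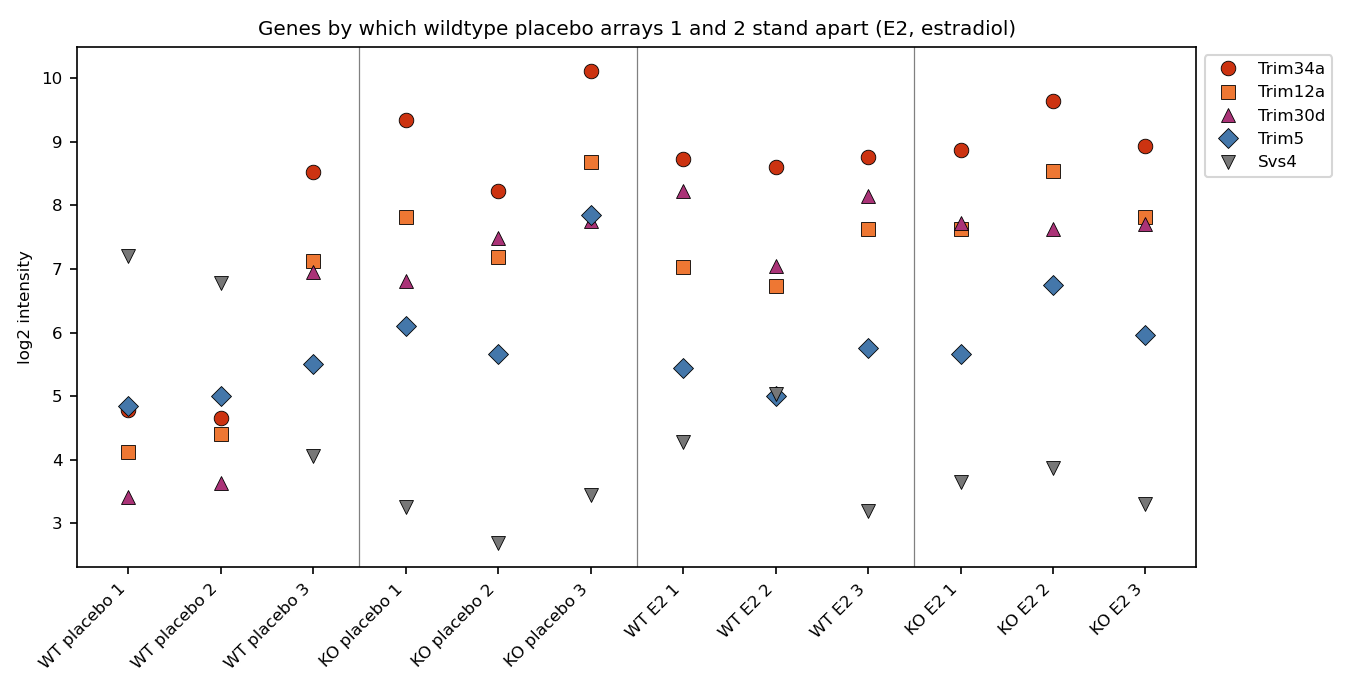
Log2 intensity of 4 Trim genes and Svs4 in each of the 12 arrays, ordered by group. Trim34a, Trim12a and Trim30d are low and Svs4 is high in wildtype placebo arrays 1 and 2, and the other 10 arrays, including wildtype placebo array 3, stand apart from them.

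Genes next to Ccnd1 were checked, since a targeted allele can bring flanking sequence of another strain. In the RefSeq gene order (GRCm38.p6, used only for names and order) 30 measured genes lay before Ccnd1 and 3 after it, near the end of chromosome 7. Of these 33, 1 had an unadjusted p under 0.05 (2.03% of all genes did), the growth factor gene Fgf4. It read 5.32, 5.48 and 5.38 in wildtype and 5.75, 5.81 and 5.47 in knockout arrays (0.28 ± 0.12). The groups overlapped, and the other Fgf4 probe sets differed by -0.11 to 0.07. The median of the 33 was -0.02, near that of all genes. Groups did not overlap in Tssc4 and 4933417O13Rik (higher) and in Nap1l4 and LTO1 (lower), where 6.71% of all genes did not overlap. LTO1, next to Ccnd1, differed by -0.22 on placebo and -0.24 on estradiol (unadjusted p = 0.0707 and 0.0566). On estradiol Cd81 (-0.49), Ano1 (-2.24) and Mrgprf (-1.52) were lower at an unadjusted p under 0.05 (13.5% of all genes had such a p). Their placebo differences were -0.05, -0.86 and -0.08. Chromosome 7 as a whole had 35 of 1420 genes at an unadjusted p under 0.05 (2.46%).

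More genes were called by genotype in the estradiol arrays, which are other mice but share the estimate of spread. There 204 genes were called (1.12%), 198 lower (1.09%) and 6 higher (0.033%) in the knockout, and 2457 had an unadjusted p under 0.05 (13.5%). Of the 198 lower genes, 119 also lay below 0 on placebo (45.7% of all genes did), and 21 had lower knockout groups there that did not overlap (1.81% of all genes). Their median difference was -1.26 on estradiol and -0.07 on placebo. Counting both directions, 11 of the 204 had the same sign with an unadjusted p under 0.05 on placebo. Ccnd1 itself was 1 of the 11, and 2.03% of all genes had such a p in either direction.

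Taken from the placebo side, 258 of the 370 genes at an unadjusted p under 0.05 (69.7%) had the same sign on estradiol. The share of all genes with the same sign was not counted, so the 69.7% has no background beside it. Of the 12 lower genes with the smallest placebo p, 9 were also below 0 on estradiol (44.8% of all genes were). At an unadjusted p under 0.05 on estradiol there were 4 of the 12 (13.5% of all genes), and 1, Ccnd1, was called. Of the 12 higher genes, 10 were above 0 on estradiol, 2 of the 12 had an unadjusted p under 0.05 there (13.5% of all genes) and 0 were called. Across all 18193 genes the 2 differences correlated at r = 0.174 and rho = 0.078, as a description over genes that are not independent.

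**Figure D5:**
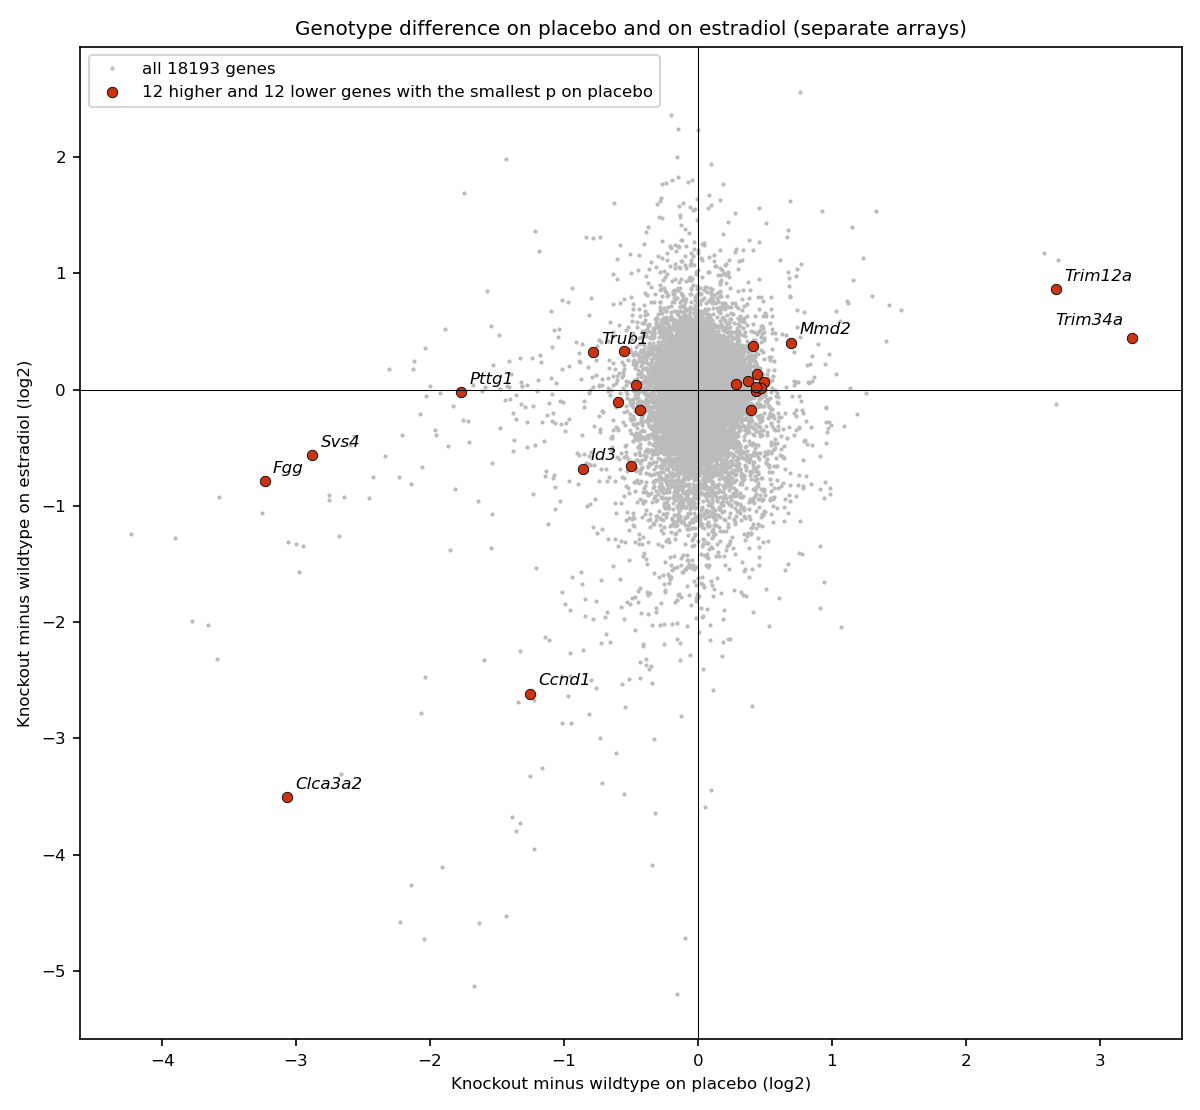
Genotype difference (knockout minus wildtype, log2) of every gene on placebo (horizontal) and on estradiol (vertical), which come from separate arrays; red points are the 12 higher and 12 lower genes with the smallest placebo p. Clca3a2 and Ccnd1 are low on both axes, Fgg and Svs4 mainly on placebo, and the area below 0 on the vertical axis holds genes that differ on estradiol with a placebo value near 0.

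The direct test of whether the genotype difference changed with treatment called 2 genes (0.011%), Anln and Padi4. Neither call was stable, since Anln was not called under 17 of 23 other settings and Padi4 not under 13 of 22, with adjusted p up to 0.284 and 0.212. Anln, above the wildtype on placebo, was below it on estradiol, where it read 7.41, 7.67 and 7.29 in wildtype and 6.18, 5.93 and 5.74 in knockout arrays (-1.51 ± 0.16, adjusted p = 0.00606). Padi4, which converts arginine to citrulline in proteins, read 4.34, 4.29 and 4.13 in wildtype and 4.56, 4.70 and 4.59 in knockout placebo arrays, below the lower quartile in all 6. On estradiol it read 6.69, 6.70 and 6.09 against 4.85, 4.63 and 4.66. For the other genes that differed on estradiol, a change of the difference with treatment did not pass the test.

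Signalling lists were near 0 at the median. The Wnt and EGF receptor family lists each held 1 member whose placebo groups did not overlap, Wnt4 and Erbb3, of 26 and 12 measured. Of all genes, 6.71% did not overlap. The receptor tyrosine kinase gene Erbb3 read 7.80, 7.92 and 8.19 in wildtype and 7.23, 7.42 and 7.57 in knockout placebo arrays, with no overlap and a difference of -0.57 ± 0.33 (-0.06 by its other probe set). On estradiol it was lower by -2.53 ± 0.33, which passed (adjusted p = 0.0122). The Wnt target gene Axin2 differed by -0.49 ± 0.23 on placebo with overlapping groups, and by 0.02 by its other probe set. The Wnt list had 13 of 26 genes on each side of 0 with a median of -0.01, and the Notch, IGF and EGF receptor family lists had medians of -0.07, -0.02 and 0.08. With single arrays left out the Wnt, Notch and IGF medians took either sign. The lists not described above had placebo medians from -0.27 (fatty acid oxidation) to 0.28 (plasma cell), with none called.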

How the data were processed

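Total RNA of 12 mammary glands was hybridised to 12 single-colour Affymetrix arrays of 45101 probe sets. The authors deposited intensities on a log2 scale, made with RMA per the submitters' processing notes, which also name limma 2.9.16; the chip definition is not given in the sources used here. The number of arrays, 3 a group, sets the precision. By the platform annotation 34945 probe sets belong to 1 gene; 932 of several genes, 9160 of none and 64 control probe sets were left out of the gene table. Of the 10092 probe sets with several genes or none, 0 were called on placebo and 356 had an unadjusted p under 0.05.

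One limma fit (limma 3.58.1, R 4.3.3) of 4 group means over the 12 arrays, with eBayes (8 residual and 2.15 prior degrees of freedom), gave knockout minus wildtype on placebo, the same on estradiol, and their difference. Tests were two-sided, and genes were called at a Benjamini-Hochberg adjusted p under 0.05 over all 18193 genes. The code was also run on simulated data with independent noise for each gene, which lacks the lymphocyte and muscle shifts shared by genes of these arrays. No result here rests on that run. Named genes are a fixed set of cyclin and hormone receptor genes, the 12 genes with the smallest p in each direction, the 2 with the smallest p of each list, and neighbours of Ccnd1; those chosen outside this rule are said to be, or are Trim5, Trim30d, Trim12c, Trim30a, Csn2, Fga, Fgb, Padi4, Xist, Ltf, Cdh1, Krt19, Mki67, Top2a and Arntl, also chosen after their values were seen. The members, the 37 gene lists (598 of 635 members measured) and this rule were chosen with earlier results of these data known. A level below the lower quartile means below the 25th percentile of genes in that array.

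Same-numbered placebo arrays of the 2 genotypes deviated from their group means with correlations of 0.66, -0.33 and -0.58. With 3 arrays a group these values cannot show whether same-numbered mice share a batch or litter. The fit reported has no replicate block. Alternatives were other probe set summaries (a gene mean, or no summary), a filter on dim genes, 2 scalings, a trend and robust prior, array weights, fits of 6 arrays, a replicate block, other thresholds, each array left out, the 2 lymphocyte-poor arrays left out, and lymphocyte, muscle and Gapdh 3′ minus 5′ covariates. Figures were drawn with matplotlib 3.10.9.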

Additional observations from a re-analysis of the deposited data

Results flagged for a closer look

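For 2 genes the genotype difference on estradiol differed from that on placebo by limma's interaction test over all genes. Anln, which encodes anillin of the cytokinesis ring, had a difference of differences of -1.96 ± 0.22 (SE, adjusted p = 0.0378): the knockout mean was 0.45 above the wildtype on placebo and the difference was -1.51 on estradiol. Padi4, a peptidylarginine deiminase gene, had -2.14 ± 0.23 (adjusted p = 0.0378), from 0.36 on placebo and -1.78 on estradiol, and its placebo levels were below the lower quartile of each array. In both genes all 3 knockout arrays lay above all 3 wildtype arrays on placebo and below them on estradiol. Neither call held throughout. Anln was not called under 17 of 23 other settings, 9 of them with 1 of the 12 arrays left out, and its adjusted p reached 0.284. Padi4 was not called under 13 of 22, 8 of them with 1 array left out, and its adjusted p reached 0.212. With the replicate block 0 genes were called. Groups of 3 are too small for a test of single outlying arrays.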

How the results depend on the processing

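On placebo the count of called genes was 0 in the fit reported and under most alternatives. It was 4 with array weights, whose estimation stopped before its tolerance was reached (Trim34a, Trim12a, Trim30d and Svs4), 1 without the 2 lymphocyte-poor arrays, and 0 to 2 with single arrays left out (2 without wildtype placebo array 3). With the replicate block the count was 0. At an unadjusted p under 0.05 the 370 genes on placebo became 97 without the dimmest 40% of genes, 223 from the 6 placebo arrays alone, 768 of 34945 probe sets on their own, 2634 with array weights, 865, 588 and 758 with the lymphocyte, muscle and Gapdh covariates, and 303 to 882 with single arrays left out. On estradiol the 204 called genes became 119 without the dimmest 40% of genes, 133 after quantile normalisation, 92 with array medians set equal, 428 with array weights, 47 from the 6 estradiol arrays alone, 45 with the replicate block, 472 without the 2 lymphocyte-poor arrays, 1054, 133 and 0 with the lymphocyte, muscle and Gapdh covariates, and 473 and 15 at adjusted p under 0.1 and 0.01. Leaving out single arrays gave 0 (without knockout estradiol array 3) to 315 (without wildtype placebo array 3). For the interaction the 2 became 0 for each probe set on its own, without dim genes, with equal medians, with the replicate block, with the muscle and the Gapdh covariates and at adjusted p under 0.01, 1 after quantile normalisation and with the trend and robust prior, 84 with array weights, 78 with the lymphocyte covariate, 4 at adjusted p under 0.1, and 0 to 18 with single arrays left out, the 18 without wildtype estradiol array 1. The causes of these shifts were not tested.

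Of 84 genes named with a placebo difference, 74 kept their sign under every alternative that gives 1 value a gene. Probe sets on their own are apart from this: of the 52 genes with several, 17 had a probe set that lay on the other side of 0. In Trim34a, Trub1, Epcam, Axin2 and Arntl every other probe set was so, at -0.21, 0.11, -1.21, 0.02 and 0.15. The genes that turned under the other alternatives had these values. Ccnd3 was -0.031 with the muscle covariate and -0.014 to 0.21 with single arrays left out. Cdk4 was -0.053 and -0.014 with the muscle and Gapdh covariates and -0.071 to 0.26 with single arrays left out. Esr1 was -0.27 to 0.46 with single arrays left out. Esr2 was 0.012 with equal medians, 0.048 without the lymphocyte-poor arrays, 0.018 and 0.10 with the muscle and Gapdh covariates, and -0.16 to 0.12 with single arrays left out. Krt5 was 0.11 with array weights, 0.052 without the lymphocyte-poor arrays, 0.053 with the Gapdh covariate, and -0.24 to 0.043 with single arrays left out. Epcam was -0.56 by the mean of its probe sets, and with array weights Wap was 0.20 and Csn2 0.74. Mki67 was -0.34 to 1.75 and Top2a -0.024 to 1.92 with single arrays left out (the lowest without wildtype placebo array 3), and -0.45 and -0.035 with the Gapdh covariate. Genes near background, such as most of those higher in the knockout, have differences that array signal limits.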
